A study of Mus musculus with 3 samples.

Results

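The 9 genes described here encode enzymes and partners that write, copy or erase DNA methylation: Dnmt1, Uhrf1, Hells, Dnmt3a, Dnmt3b, Dnmt3l, Tet1, Tet2 and Tet3. They were taken by symbol from the 32285 genes of single-cell RNA-seq matrices of blastoids, stem cell cultures that form structures resembling the mouse blastocyst. All 9 passed the filter on low counts, and none of them is part of the rule that sorts barcodes into states. The source was 1 line of E14 embryonic stem cells kept with 1000 U/mL LIF and 10 µM T0901317, an agonist of the liver X receptors. All libraries share that agonist and a first medium of 24 h, which held CHIR99021 at 3 µM, Y-27632 at 2 µM, rhFGF4 at 12.5 ng/mL and heparin at 0.5 µg/mL. In the second medium BMP4 at 5 ng/mL and A83-01 at 0.5 µM took the place of Y-27632. Blastoids seeded at 5 cells per microwell were picked by hand on day 5, so each library pools blastoids. There was 1 library of each of 3 types, titled Type I, Type II and Type III, and the labels used here do not say what sets the types apart or include cells without T0901317.

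In mammals Dnmt1 copies methylation onto new DNA strands after replication. Uhrf1 reads hemimethylated sites and brings Dnmt1 to them, and Hells is a chromatin remodeler that opens nucleosomal DNA for methylation. Dnmt3a and Dnmt3b set new methylation, and Dnmt3l, which has no catalytic activity of its own, stimulates them. Tet1, Tet2 and Tet3 oxidise methylated cytosine, a step towards its loss. The mouse blastocyst is known for low genome methylation, which rises in the epiblast as it leaves the naive state and stays lower in extraembryonic lineages. RNA levels do not measure methylation itself.

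Barcodes that reached 10000 UMIs with no more than 20% of them mitochondrial numbered 1405 of 6813 in Type I, 1992 of 9265 in Type II and 272 of 2310 in Type III. Kept barcodes had a median of 52224 UMIs in Type I, 41491 in Type II and 71540 in Type III. Of these, 1265, 1783 and 254 fell into 5 states by summed CPM (UMI counts scaled to the same total in every barcode or sum). At least 1000 CPM of the carrier genes Ttr, Rbp4, Apoa1 and Apoa2 marked visceral endoderm-like barcodes. Of the rest, at least 100 CPM of Gata6, Sox17 and Gata4 marked early primitive endoderm-like (PrE-like) ones. Next, at least 800 CPM of Krt8, Krt18 and Krt19 marked trophectoderm-like (TE-like) ones. The remaining barcodes with at least 150 CPM of Pou5f1 were epiblast-like. They were naive where Klf2, Zfp42 and Nanog had more UMIs than Otx2, Pou3f1 and Fgf5, and primed where they had fewer. Markers that the rule did not use were highest in their own state for 7 of 10 naive, 8 of 12 primed, 7 of 10 early PrE, 9 of 10 visceral endoderm and 10 of 12 trophectoderm genes. The exceptions were Klf4, Klf5 and Tbx3 for naive, and Etv4, Etv5, Foxd3 and Cdh2 for primed. For early PrE they were Pdgfra, Dab2 and Foxa2, for visceral endoderm Cubn, and for trophectoderm Cdx2 and Tead4. Summed primed markers had 1127 to 1200 CPM in primed and 870 to 1074 CPM in naive sums. Summed early PrE markers had 6018 to 6808 CPM in early PrE-like and 5219 to 5919 CPM in visceral endoderm-like sums. Type I, II and III held 305, 485 and 112 naive, 38, 81 and 6 primed, 271, 376 and 45 early PrE-like, 443, 563 and 19 visceral endoderm-like, and 208, 278 and 72 TE-like barcodes. The 6 primed barcodes of Type III were left out of every sum, so primed values have n = 2 and the others n = 3.

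Libraries shared barcodes: 155 between Type I and Type II, 209 between Type I and Type III, and 151 between Type II and Type III. Only 1 of them had at least 10000 UMIs in both libraries. In Type III 161 of 272 kept barcodes also occurred elsewhere, 31 of its 45 early PrE-like ones among them. Doublets were not removed, and 436 of 443 visceral endoderm-like barcodes of Type I met more than 1 state rule. Which other rule they met was not counted, apart from Pou5f1, met by 7. Of early PrE-like barcodes, 181 of 271 in Type I, 236 of 376 in Type II and 30 of 45 in Type III met more than 1 rule. Having failed the carrier rule, these also met the keratin or the Pou5f1 rule, the latter in 44, 66 and 17. The 3 libraries, being different types of 1 line, stand in for replicates of a state difference. A p-value between states sets that difference against a residual spread of the gene that is pooled over all states in the fit. It does not measure how alike that particular difference was across libraries. A gene can pass although its libraries differ in the size of the change. Primed comparisons, with fewer libraries, take much of their spread from the other states. Fold changes are edgeR log2 fold changes with their standard error (SE) and Benjamini-Hochberg adjusted p over 14022 genes, called at 0.05. Its TMM scaling shifted fold changes against plain totals by -0.34 for TE-like over naive, by -0.19 for TE-like over visceral endoderm-like, and by -0.13 to -0.15 for the other states over naive. The shift of visceral endoderm-like over early PrE-like was nearly 0. CPM values below are on plain totals.

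Promoter sequences of the 3 maintenance genes are shown first because these genes moved with DNA replication genes over barcodes, as described below. RefSeq promoter windows on GRCm38.p6 run from 250 bases before to 50 after a transcript start, and 16 windows matched these genes, at least 1 for each of the 9. They were searched on both strands for 4 words of the kind bound by E2F factors, which control replication genes: TTTCCCGC, TTTCGCGC, TTTGCCGC and TTTGGCGC. Overlapping matches were allowed. Capitals mark the matches, which are a description of the letters and no proof of binding. Hells lies on chromosome 19 plus strand, and its window spans chr19:38930740-38931039. The second of 2 Uhrf1 starts, on the plus strand of chromosome 17, spans chr17:56304063-56304362. The last of 3 Dnmt1 starts, on the minus strand of chromosome 9, spans chr9:20952574-20952873.
Hells: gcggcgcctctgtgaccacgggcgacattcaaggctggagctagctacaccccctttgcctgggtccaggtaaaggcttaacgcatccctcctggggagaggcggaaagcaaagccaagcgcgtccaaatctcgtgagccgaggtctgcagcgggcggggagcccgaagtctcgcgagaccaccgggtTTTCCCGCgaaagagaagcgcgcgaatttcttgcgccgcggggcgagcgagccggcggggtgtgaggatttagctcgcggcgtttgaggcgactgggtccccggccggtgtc
Uhrf1: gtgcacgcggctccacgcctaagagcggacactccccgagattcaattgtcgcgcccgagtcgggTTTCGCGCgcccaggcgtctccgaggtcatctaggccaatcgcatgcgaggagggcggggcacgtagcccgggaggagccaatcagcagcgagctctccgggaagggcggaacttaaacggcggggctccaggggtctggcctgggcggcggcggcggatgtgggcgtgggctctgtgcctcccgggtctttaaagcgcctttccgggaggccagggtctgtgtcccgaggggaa
Dnmt1: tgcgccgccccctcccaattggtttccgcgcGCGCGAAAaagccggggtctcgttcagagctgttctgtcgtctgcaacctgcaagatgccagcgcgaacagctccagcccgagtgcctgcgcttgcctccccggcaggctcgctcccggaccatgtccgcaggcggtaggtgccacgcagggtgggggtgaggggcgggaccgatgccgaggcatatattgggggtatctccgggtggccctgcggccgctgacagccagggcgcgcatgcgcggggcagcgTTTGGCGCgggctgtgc

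On GRCm38 the gene models of the maintenance group span chr9:20907209-20959888 (Dnmt1), chr17:56303321-56323486 (Uhrf1) and chr19:38930915-38971051 (Hells). The de novo group spans chr12:3806007-3914443 (Dnmt3a), chr2:153649450-153687730 (Dnmt3b) and chr10:78041947-78063622 (Dnmt3l). The Tet genes span chr10:62804570-62908996 (Tet1), chr3:133463679-133545139 (Tet2) and chr6:83362373-83459084 (Tet3).

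The match in Hells begins at -62 from the start, that in Uhrf1 at -185, and those in Dnmt1 at -219 and 33. The other 13 windows, which include every window of the Dnmt3 and Tet genes, held none of these letters. Over all RefSeq promoter windows of the same length, 744 of 32851 (2.26%) held a match. Among the 33 windows found for a list of 42 other S phase genes, 12 did. The 3 windows shown hold 33 or 34 CpG pairs each, against a median of 7.0 over all windows. Windows without a match ranged from 2 in the first Dnmt1 start to 57 in Tet2, with 46 and 47 in 2 of the Dnmt3a windows and 3 to 6 in those of Dnmt3l.

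The maintenance genes were low in both endoderm states and differed from each other in the TE-like state. Dnmt1 in TE-like cells stood at 121 CPM (Type I), 99.7 CPM (Type II) and 115 CPM (Type III). In naive cells it was at 61.5, 61.5 and 59.2 CPM in that order, in early PrE-like cells at 54.5, 49.1 and 38.7 CPM, and in visceral endoderm-like cells at 50.5, 50.2 and 52.1 CPM. Primed cells had 50.4 CPM in Type I and 65.4 CPM in Type II. The TE-like values lay above all others without overlap, and the other 4 states overlapped with their neighbours in the order.

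Uhrf1 split the states into a high and a low group. It stood at 101, 114 and 111 CPM in the naive cells of Type I, II and III, at 95.4 and 113 CPM in the primed cells of Type I and II, and at 103, 95.9 and 117 CPM in TE-like cells. Early PrE-like cells had 55.0, 48.5 and 46.8 CPM and visceral endoderm-like cells 49.3, 47.3 and 50.4 CPM. Values overlapped within each group of states and not between the groups.

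Hells, the remodeler, was highest in the epiblast. Primed cells had 456 CPM in Type I and 414 CPM in Type II, and naive cells had 364, 335 and 343 CPM. TE-like cells had 213, 198 and 219.7 CPM, early PrE-like cells 136, 124 and 103 CPM, and visceral endoderm-like cells 122, 106 and 84.1 CPM. Only the 2 endoderm states overlapped.

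**Figure D1:**
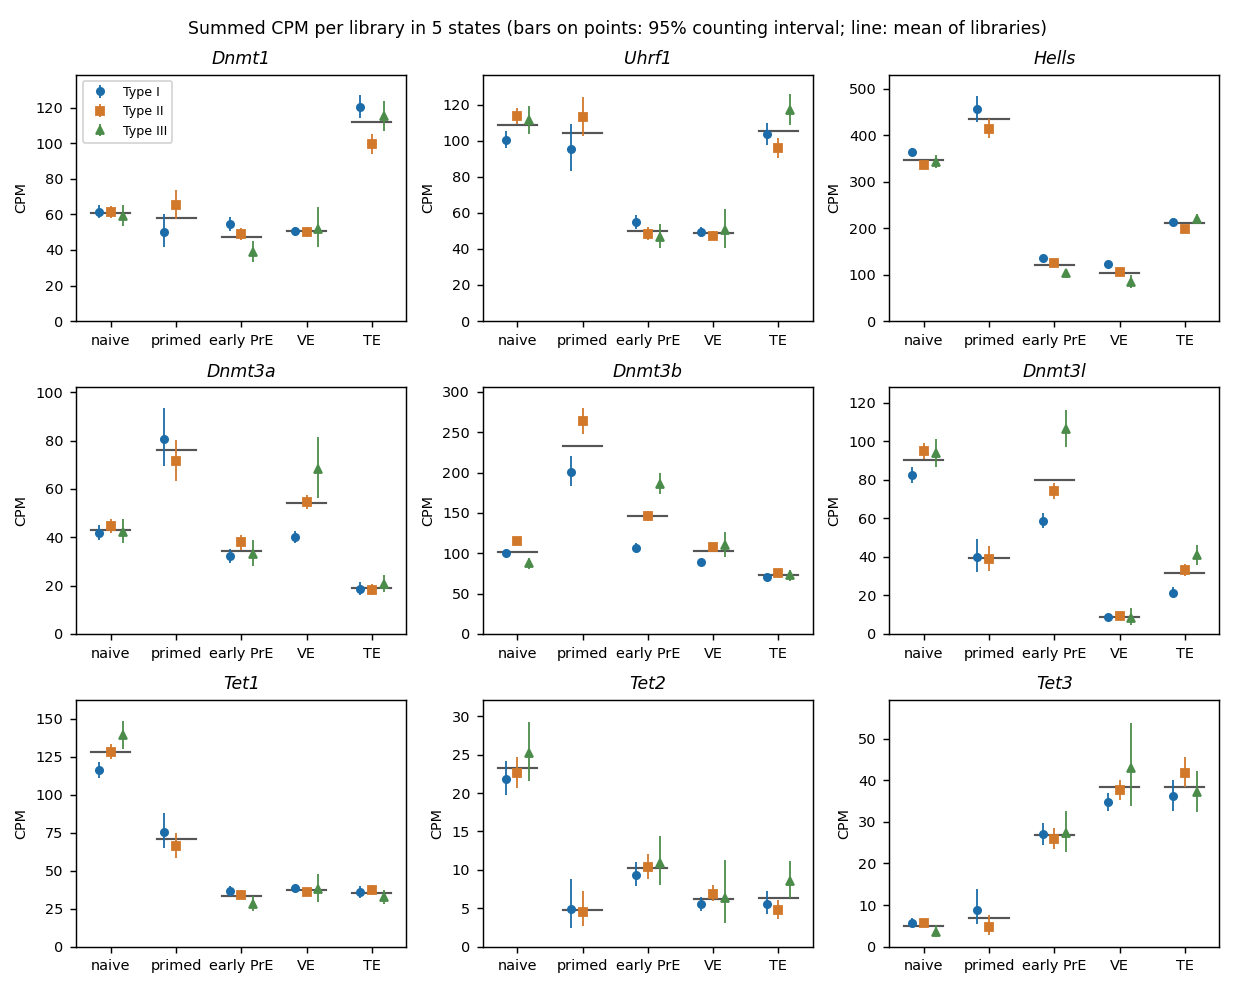
Summed CPM of the 9 genes in 5 states, with 1 point per library (circle Type I, square Type II, triangle Type III), its 95% counting interval and a line at the mean of libraries. Dnmt1 is highest in TE-like sums, Dnmt3a and Dnmt3b in primed sums, Tet1 and Tet2 in naive sums, and Tet3 in visceral endoderm-like and TE-like sums.

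Among the de novo genes Dnmt3a and Dnmt3b were both highest in primed cells, and Dnmt3l was not. Dnmt3a had 80.7 CPM in the primed cells of Type I and 71.5 CPM in those of Type II, against 41.9, 44.6 and 42.3 CPM in naive cells. It was at 32.1, 37.8 and 33.2 CPM in early PrE-like, 40.1, 54.5 and 68.1 CPM in visceral endoderm-like and 18.7, 18.2 and 20.6 CPM in TE-like cells. TE-like cells were the lowest and did not overlap with any other state, while visceral endoderm-like values spanned the naive ones.

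Dnmt3b had 201 CPM in primed cells of Type I and 264 CPM in those of Type II. Naive cells had 101, 115 and 87.3 CPM, visceral endoderm-like cells 89.3, 108 and 109.9 CPM, and TE-like cells 70.5, 75.04 and 72.4 CPM. Early PrE-like cells ranged most, from 107 CPM in Type I over 146 CPM in Type II to 186 CPM in Type III. Primed values lay above all others and TE-like values below all others.

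Dnmt3l, the cofactor, was lowest in visceral endoderm-like cells, at 8.57, 9.17 and 8.01 CPM. Naive cells had 82.4, 94.8 and 93.7 CPM and early PrE-like cells 58.7, 74.0 and 106 CPM, and these overlapped. Primed cells had 40.1 CPM in Type I and 38.7 CPM in Type II, and TE-like cells had 21.4, 33.2 and 40.8 CPM. The fold between its highest and lowest state mean, 10.5, was the widest of the 9 genes.

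Of all Dnmt3 UMIs in a library and state, Dnmt3l gave 36.6% to 42.0% in naive, 10.3% to 12.5% in primed and 4.31% to 6.22% in visceral endoderm-like cells. Dnmt3b gave 39.1% to 45.2% in naive and 62.5% to 70.5% in primed cells. These shares are to be compared between states and not between genes, since how evenly UMI counts catch different genes was not tested.

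The 3 Tet genes had different orders of states. Tet1 stood at 116, 128 and 139 CPM in naive cells of Type I, II and III, and at 75.8 and 66.2 CPM in primed cells of Type I and II. In early PrE-like cells it had 36.7, 34.3 and 28.3 CPM, in visceral endoderm-like cells 38.3, 36.2 and 37.8 CPM, and in TE-like cells 35.9, 37.2 and 32.8 CPM. Naive values were above primed values, and the other 3 states overlapped below them.

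Tet2 was a naive gene here, at 21.9, 22.6 and 25.2 CPM. Primed cells had 4.90 CPM in Type I and 4.58 CPM in Type II, from 11 and 18 UMIs. Early PrE-like cells had 9.37, 10.3 and 10.9 CPM, visceral endoderm-like cells 5.52, 6.90 and 6.30 CPM, and TE-like cells 5.61, 4.75 and 8.51 CPM. No other state reached the naive values.

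Tet3 had the opposite order of naive and extraembryonic states, with 5.71, 5.61 and 3.51 CPM in naive cells and 8.91 and 4.84 CPM in primed cells of Type I and II. Early PrE-like cells had 27.0, 25.8 and 27.4 CPM, visceral endoderm-like cells 34.7, 37.6 and 42.9 CPM, and TE-like cells 36.2, 41.8 and 37.1 CPM. Epiblast values did not overlap with those of the other 3 states. Of all Tet UMIs, Tet3 gave 2.09% to 3.97% in naive and 46.6% to 49.9% in TE-like sums, and Tet1 gave 80.8% to 82.9% and 41.8% to 46.2%.

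After each barcode was thinned to 10000 UMIs, the share of naive barcodes with a Tet3 UMI was 4.26%, 4.33% and 2.68% in Type I, II and III. The exact 95% interval in Type I was 2.29% to 7.18%. In visceral endoderm-like cells the shares were 31.6%, 34.99% and 47.4%. Without thinning they were 22.6%, 20.2% and 14.3% in naive and 80.1%, 73.5% and 84.2% in visceral endoderm-like cells. The thinned shares of Tet3 in naive cells were the lowest of any of the 9 genes in sums of at least 10 barcodes. For Dnmt3l the thinned shares were 5.87%, 6.93% and 5.26% in visceral endoderm-like cells and 48.5%, 46.4% and 43.8% in naive cells.

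The comparisons with naive cells share the naive sums, and those with visceral endoderm-like cells share theirs. In primed over naive epiblast-like cells 5 of 9 genes were called, while 9.85% of all tested genes were. Dnmt3b rose by 1.09 (SE 0.15, adjusted p = 0.000124) and Dnmt3a by 0.71 (SE 0.14, adjusted p = 0.00281) on the log2 scale. Tet2 fell by 2.35 (SE 0.23, adjusted p = 4.39e-06), Dnmt3l fell by 1.23 and Tet1 fell by 1.00. Both libraries with a primed sum went the same way for these 5. Dnmt1 (-0.19), Uhrf1 (-0.15), Hells (0.14) and Tet3 (0.14) did not pass, with adjusted p from 0.404 to 0.831. Without Type II, which leaves only the 38 primed barcodes of Type I and assumes that they vary like the other sums, Tet2 alone was called (adjusted p = 0.00826). Dnmt3b, Tet1, Dnmt3l and Dnmt3a then had adjusted p of 0.0651, 0.0606, 0.11 and 0.0843. Dnmt3a also missed the threshold without Type I (0.62, adjusted p = 0.0611) and after thinning (0.29, adjusted p = 0.571).

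**Figure D2:**
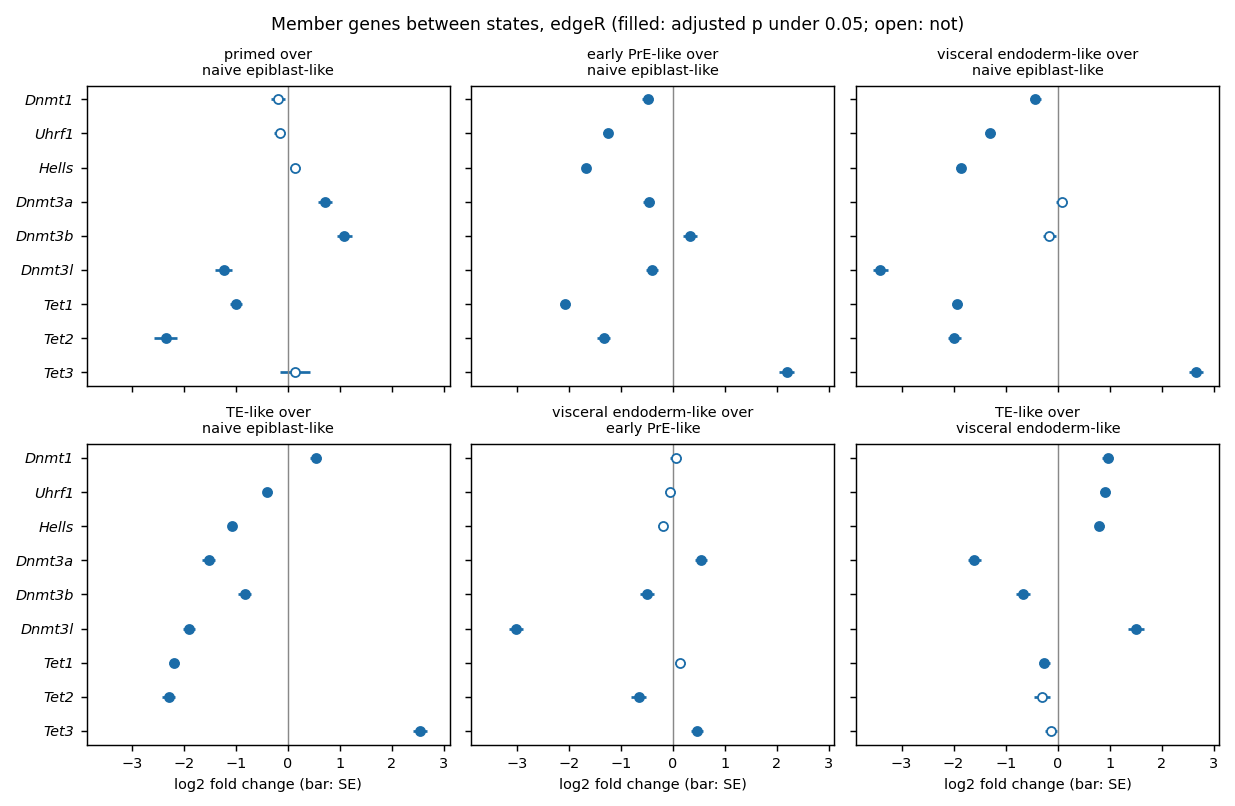
edgeR log2 fold changes of the 9 genes in 6 comparisons of states, with bars of 1 SE; filled points passed an adjusted p of 0.05 and open points did not. Tet3 lies above 2 in all 3 comparisons of a non-epiblast state with naive cells, and Dnmt3l below -3 in both comparisons of visceral endoderm-like cells with naive or early PrE-like cells.

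The change could be followed inside the epiblast by the primed share, the UMIs of Otx2, Pou3f1 and Fgf5 as a part of naive plus primed UMIs. Dnmt3b in Type I went from 62.3 CPM in 199 barcodes under 10% to 136 CPM in 54 barcodes at 10 to 25% and 194 CPM in 52 barcodes at 25 to 50%. In Type II the same bins had 64.4, 156 and 232 CPM, and in Type III 48.5, 134 and 205 CPM. Tet2 went the other way, from 30.5 to 10.8 and 4.80 CPM in Type I, from 30.9 to 15.1 and 4.32 CPM in Type II, and from 32.0 to 10.0 and 8.75 CPM in Type III. All these bins belong to barcodes called naive, so both genes differed before the rule turned to primed. Dnmt3l went from 96.4 to 48.6 CPM in Type I, from 115 to 54.4 CPM in Type II and from 113 to 49.3 CPM in Type III over the same 3 bins. Tet1 went from 137 to 80.1 CPM, from 149 to 91.0 CPM and from 171 to 56.5 CPM. Dnmt1 stayed between 54.7 and 66.6 CPM in these bins of all 3 libraries. These bins are barcodes of the same libraries and are given without a test.

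**Figure D3:**
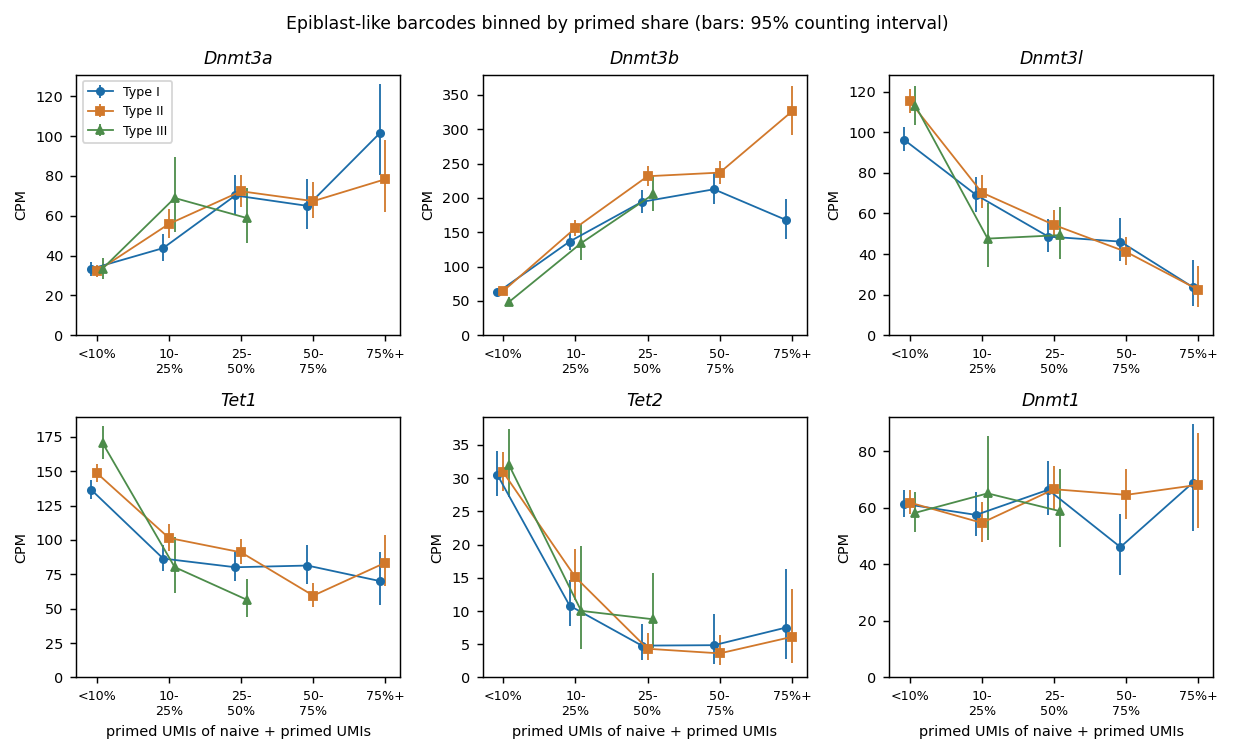
CPM of 6 genes in epiblast-like barcodes binned by primed share (x axis, primed UMIs as a part of naive plus primed UMIs), with 1 line per library, 95% counting intervals, and bins under 8 barcodes left out. Dnmt3a and Dnmt3b go up and Dnmt3l, Tet1 and Tet2 go down from the first to the third bin, while Dnmt1 stays within 54.7 to 66.6 CPM there.

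Early PrE-like over naive cells showed calls for 9 of 9 genes where 69.2% of all genes were called, so the count is near what any gene shows. Tet3 rose by 2.19 (SE 0.14, adjusted p = 2.77e-10). Tet1 fell by 2.07, Hells fell by 1.67, Tet2 fell by 1.33 and Uhrf1 fell by 1.25. Dnmt1 (-0.49), Dnmt3a (-0.47) and Dnmt3l (-0.40) were called at smaller sizes. Dnmt3l lost its call on plain totals (-0.24, adjusted p = 0.071), without Type I (-0.27, adjusted p = 0.0744), without Type II (-0.34, adjusted p = 0.115), and without the library term (-0.36, adjusted p = 0.0696). It was larger with shared barcodes left out (-0.74, adjusted p = 4.27e-07) and with endoderm barcodes that also met the Pou5f1 rule left out (-0.92, adjusted p = 2.44e-06), both settings added after the data were seen. In Type III alone its plain log2 ratio was 0.18, with a counting interval of 0.01 to 0.35, against -0.49 in Type I and -0.36 in Type II.

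Dnmt3b, at 0.33 (SE 0.13, adjusted p = 0.0267), lost its call without Type III (0.07, adjusted p = 0.484) and without Type II (0.41, adjusted p = 0.0812). It also lost it with RLE size factors (0.26, adjusted p = 0.0721), DESeq2 (0.28, 0.0859), no library term (0.36, 0.0583), barcodes above the 95th percentile of UMIs left out (0.19, 0.112) and thinning (0.11, 0.385). With barcodes shared between libraries left out, a setting added after the data were seen, it was -0.13 (adjusted p = 0.237). In Type III the early PrE-like sum of Dnmt3b went from 186 CPM in 45 barcodes to 93.6 CPM in the 14 barcodes that no other library held, and that of Dnmt3l from 106 to 74.9 CPM. In the same sum the list of 8 2-cell-like genes reached 402 CPM, against 0.41 CPM in Type I and 32.4 CPM in Type II. All 1805 of these UMIs sat in 1 barcode, and without it Dnmt3b was at 195 CPM and Dnmt3l at 111 CPM. The part of that barcode and of the shared ones in the difference between libraries was not tested.

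Visceral endoderm-like over naive cells gave 7 of 9 calls beside 74.6% of all genes. Dnmt3l fell by 3.41 (SE 0.14, adjusted p = 7.5e-13), and Tet3 rose by 2.66 (SE 0.14, adjusted p = 1.06e-11). Tet2 fell by 1.99, Tet1 fell by 1.93, Hells fell by 1.87, Uhrf1 fell by 1.30 and Dnmt1 fell by 0.43. Dnmt3a (0.08, adjusted p = 0.535) and Dnmt3b (-0.16, adjusted p = 0.261) did not pass. Dnmt3b differed in direction between libraries, with plain log2 ratios of -0.17 in Type I, -0.0855 in Type II and 0.33 in Type III. It was called lower without Type III (-0.28, adjusted p = 0.00467), with barcodes above the 95th percentile of UMIs left out (-0.25, 0.0426), after thinning (-0.40, 0.000513) and with shared barcodes left out (-0.49, 0.000154). The last setting has no visceral endoderm-like sum of Type III.

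Within endoderm, visceral endoderm-like over early PrE-like cells, 5 of 9 genes were called against 22.4% of all genes. Dnmt3l fell by 3.02 (SE 0.14, adjusted p = 2.18e-10), in each library from the early PrE-like levels above to under 10 CPM. Tet2 fell by 0.66 and Dnmt3b fell by 0.49, whereas Dnmt3a rose by 0.54 and Tet3 by 0.47. Dnmt1 (0.05), Tet1 (0.14), Uhrf1 (-0.05) and Hells (-0.20) did not pass. Without Type II only Dnmt3l of these was called, and Tet2 (adjusted p = 0.0558), Dnmt3b (0.149), Dnmt3a (0.0704) and Tet3 (0.176) were not. Without Type III Hells was called as well (-0.19, adjusted p = 0.0291). Tet2 lost its call also without Type I (adjusted p = 0.0835), after thinning, and when endoderm barcodes that also met the Pou5f1 rule were left out, a setting added after the data were seen. Tet3 lost it with doubled state thresholds.

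Along the summed carrier CPM Dnmt3l in Type I went from 95.7 CPM under 100 to 73.8, 19.0, 12.3 and 6.74 CPM in the next bins and 3.26 CPM in the 53 barcodes at 10000 or more. Type II went from 108 through 64.4, 34.5, 15.8 and 5.94 to 1.71 CPM. The steepest step in Type I, from 73.8 to 19.0 CPM, fell between the bins of 100 to 300 and of 300 to 1000, below the threshold of the visceral endoderm-like state. In Type II the steps widened as ratios towards the last, from 5.94 to 1.71 CPM, above that threshold. Dnmt3b in the first and last bins had 113 and 55.7 CPM in Type I and 140.1 and 74.3 CPM in Type II. Dnmt3a had 38.5 and 53.9 CPM in Type I and 41.0 and 60.7 CPM in Type II. Type III had 31 barcodes in the first bin and under 10 in each of the others, so no trend is read from it.

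**Figure D4:**
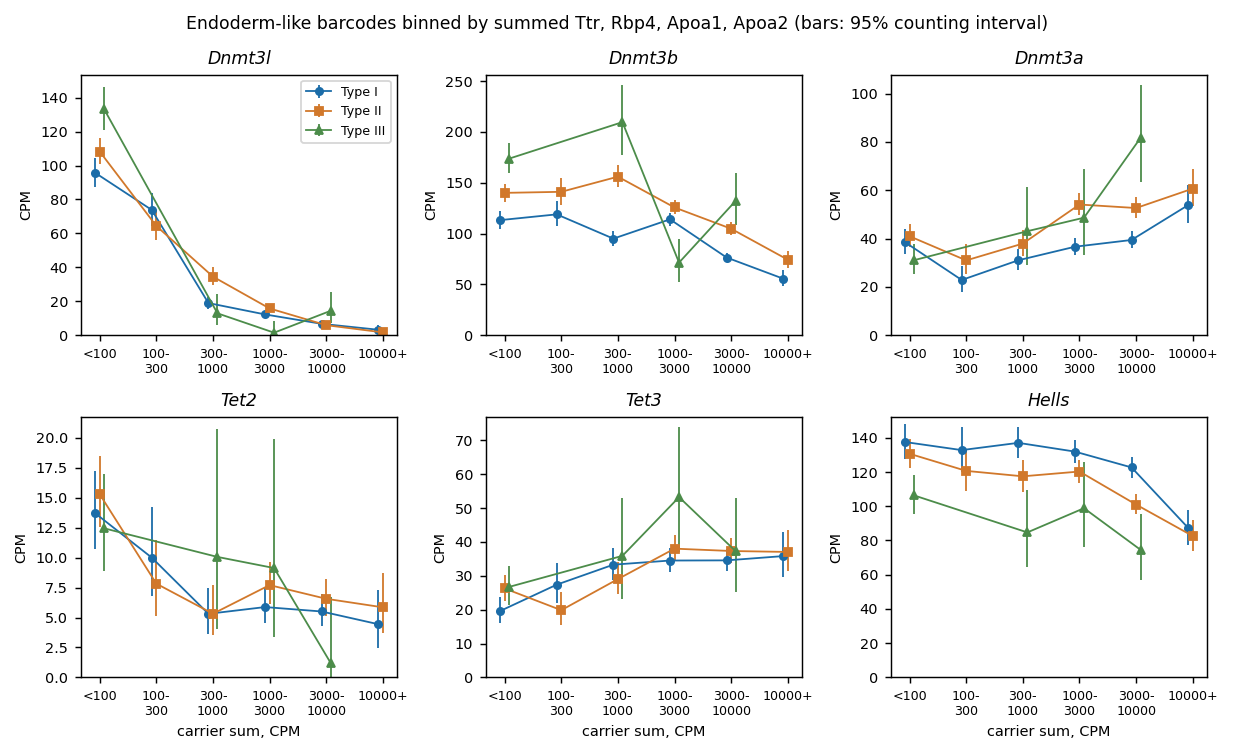
CPM of 6 genes in endoderm-like barcodes binned by the summed CPM of Ttr, Rbp4, Apoa1 and Apoa2 (x axis), with 1 line per library, 95% counting intervals, and bins under 8 barcodes left out. Dnmt3l goes down from 95.7 to 3.26 CPM in Type I and from 108 to 1.71 CPM in Type II.

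TE-like over naive cells gave 9 of 9 calls beside 57.7% of all genes. Tet3 rose by 2.53 (SE 0.14, adjusted p = 9.26e-11) and Dnmt1 by 0.53 (SE 0.10, adjusted p = 0.00019). Tet2 fell by 2.29, Tet1 fell by 2.19, Dnmt3l fell by 1.90, Dnmt3a fell by 1.52, Hells fell by 1.07 and Dnmt3b fell by 0.83. Uhrf1 was at -0.39 (adjusted p = 0.000804) but at -0.05 on plain totals (adjusted p = 0.645), and at -0.29 without Type II (adjusted p = 0.0753). The plain log2 ratio of Dnmt1 was between 0.70 and 0.97 in the 3 libraries, and Dnmt1 was higher in 3 of 3.

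TE-like over visceral endoderm-like cells gave 7 of 9 calls beside 64.3% of all genes. Dnmt3l rose by 1.51, Dnmt1 by 0.97, Uhrf1 by 0.91 and Hells by 0.80, so all 3 maintenance genes were higher in the trophectoderm-like state in 3 of 3 libraries. Dnmt3a fell by 1.60 (SE 0.12, adjusted p = 3.81e-09) and Dnmt3b fell by 0.67. Tet1, at -0.25 (adjusted p = 0.0375), lost its call in 13 of 17 alternatives, those without Type I (adjusted p = 0.167) and without Type II (0.13) among them. Tet2 (-0.31) and Tet3 (-0.12) did not pass, and Tet2 did without Type III (-0.45, adjusted p = 0.0231), with barcodes above the 95th percentile of UMIs left out (-0.40, 0.0228) and in the S phase range described below (-0.67, 0.00814).

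Between library types within a state there is 1 library per side and no test. Among pairs with 20 CPM or more on either side, 0 of 37 gene and state pairs of these genes lay 2-fold apart between Type II and Type I, where 0.0619% of all pairs did. Between Type III and Type I it was 0 of 31, where 0.493% of all pairs did. The widest differences, in log2 of CPM with 10 added, were 0.76 for Dnmt3l and 0.75 for Dnmt3b, both in early PrE-like cells of Type III over Type I.

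Over single barcodes the maintenance genes went most with S phase genes in the median, and other genes overlapped with them in some sets. Barcodes of each library and state with at least 50 barcodes were divided into terciles by the summed CPM of 42 S phase genes without the 9 genes. In the naive cells of Type I, Dnmt1 had 35.1 CPM in the lowest and 82.5 CPM in the highest tercile, Uhrf1 58.8 and 144 CPM, and Hells 259 and 452 CPM. Over 11 library and state sets the median ratio of the highest to the lowest tercile was 2.72 for Dnmt1, 2.44 for Uhrf1 and 2.27 for Hells, and it was above 1 in 11 of 11 for each. For the Dnmt3 and Tet genes the medians lay between 1.01 for Dnmt3l and 1.27 for Dnmt3b. The ratio was above 1 in 10 of 11 sets for Dnmt3b and Tet1, 9 for Tet2, 7 for Tet3 and 6 for Dnmt3a and Dnmt3l. In the naive cells of Type I Dnmt3b, at 1.89, was above Hells, at 1.75, and in the primed cells of Type II it was at 1.73 against 1.27. In those primed cells Tet2, with 18 UMIs in the whole sum, was at 1.98 and Uhrf1 at 1.94. Type III had Dnmt3a at 2.06 in naive and Tet3 at 1.86 in TE-like cells, below Uhrf1 at 2.39 and 2.75 in the same sets. The lowest Uhrf1 ratio of any set, 1.82, was in early PrE-like cells of Type I. Barcodes within a library are not replicates, and these ratios carry no test. Pearson correlations over barcodes after thinning, of log2 CPM with 100 added, had medians of 0.27 for Dnmt1, 0.27 for Uhrf1 and 0.38 for Hells with the S phase sum. Sparse counts can hold such values low, and how far they did so here was not tested.

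**Figure D5:**
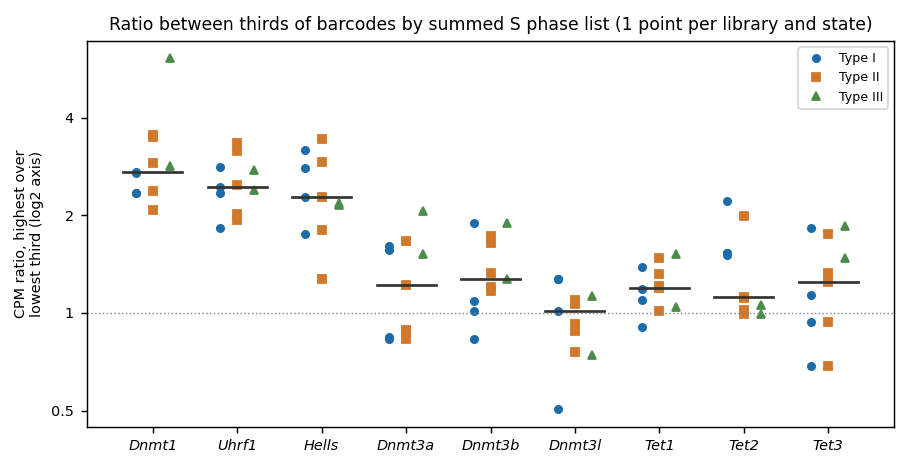
Ratio of CPM in the tercile of barcodes with the highest S phase list sum to that with the lowest (log2 axis), with 1 point per library and state and a line at the median. All 11 points of Dnmt1, Uhrf1 and Hells lie above 1, and the medians of the other 6 genes lie between 1.01 and 1.27.

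The S phase sum also differed between states, at 3329 to 3533 CPM in naive, 3050 to 3403 CPM in TE-like and 2081 to 2349 CPM in endoderm sums. With barcodes limited to the 25th to 75th percentile of that sum, 1741 to 3522 CPM, Dnmt1 was no longer called in early PrE-like (-0.14, adjusted p = 0.252) or visceral endoderm-like cells (-0.07, adjusted p = 0.606) over naive cells. Uhrf1 and Hells were still called in both.

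Counts for lists of genes that work with the 9 are to be read against the share of all genes called, which was 9.85% in primed, 69.2% in early PrE-like, 74.6% in visceral endoderm-like and 57.7% in TE-like over naive cells. Of 12 partners of maintenance, 2 fell in primed over naive cells, with a median log2 fold change of -0.14 against -0.03 over all genes. Dppa3, which limits Uhrf1 in mouse oocytes and embryonic cells, fell by 1.89 there and Uhrf2, a relative of Uhrf1, fell by 0.65. In early PrE-like cells 1 of 12 rose and 6 fell, a smaller share than the 69.2% of all genes. Dppa3 fell by 5.46, from 205 ± 10.1 CPM (SD, n = 3) in naive to 5.14 ± 0.865 CPM in early PrE-like cells, and Cdca7, a partner of Hells that is also on the S phase list, fell by 1.86. Dppa3 also fell by 5.04 in visceral endoderm-like and by 3.46 in TE-like cells over naive cells.

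Of 11 tested regulators of de novo methylation, 2 rose and 2 fell in primed over naive cells, beside 9.85% of all genes called. Prdm14, which represses Dnmt3 genes in mouse embryonic stem cells, fell by 3.52 from a naive level of 3.84 ± 1.14 CPM (SD, n = 3), and Kdm2b, a CpG island protein, rose by 0.79. Of 12 protectors of imprints and heterochromatin, 10 fell and 1 rose in early PrE-like and in visceral endoderm-like cells, beside 69.2% and 74.6% of all genes called. Zfp57, which guards imprinted regions, fell by 1.19 in primed, 2.01 in early PrE-like, 2.23 in visceral endoderm-like and 1.87 in TE-like cells over naive cells. It stood at 59.8 ± 2.02 CPM in naive cells.

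Of 8 readers of methylated CpG, 3 rose and 3 fell in each endoderm state and 4 rose and 2 fell in TE-like cells over naive cells, near the shares of all genes called (69.2%, 74.6% and 57.7%). Zbtb4 rose by 3.12, 3.93 and 2.22 in early PrE-like, visceral endoderm-like and TE-like cells, from 0.60 ± 0.25 CPM. Of 15 genes of oxidised base removal or Tet partnership, 8 fell and 1 rose in early PrE-like cells, beside 69.2% of all genes called, and Ung, a uracil glycosylase also on the S phase list, fell by 2.29. Gadd45b, a stress gene studied for a part in demethylation, rose by 1.99 in TE-like over naive cells. Of 15 tested genes of methyl donor and 2-oxoglutarate metabolism, 12 fell and 1 rose in TE-like and 9 fell and 4 rose in each endoderm state over naive cells. The shares of all genes called were 57.7% in TE-like, 69.2% in early PrE-like and 74.6% in visceral endoderm-like cells.

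Among 13 tested germline genes known to be silenced by promoter methylation, 10 fell and 2 rose in early PrE-like, 11 fell and 2 rose in visceral endoderm-like, and 7 fell and 2 rose in TE-like cells over naive cells, beside 69.2%, 74.6% and 57.7% of all genes called. The medians were -2.33, -2.61 and -0.70 against medians of all genes of 0.02, 0.00 and -0.03. In primed over naive cells 2 fell and 1 rose. Rpl10l fell by 1.80, from 13.3 ± 2.10 CPM in naive to 3.37 ± 0.989 CPM (SD, n = 2) in primed cells. Dkkl1 rose by 4.18 in TE-like cells, to 13.1 ± 2.34 CPM.

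Over the 14 sums, genes with the levels most like each member, by Pearson r of log2 CPM with 10 added among 4943 candidates, were Kdm6b for Tet3 (0.99), Dut for Hells (0.99), Ash2l for Uhrf1 (0.98), Sap30 for Tet1 (0.97), Casp8ap2 for Dnmt1 (0.96), Tigar for Dnmt3l (0.93), Mybl2 for Tet2 (0.92), Gstt2 for Dnmt3a (0.89) and Pabpc4 for Dnmt3b (0.88). The sums share 3 libraries and 5 states, so these values are a description.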

How the data were processed

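The deposited values are UMI counts per gene and barcode, 1 matrix for each of 3 libraries. Per the labels' protocols the kit was 10x 3' v3.1. The file headers name Cell Ranger 6.0.1, and the submitters' processing notes give mm10. Cell calling was not described. Barcodes were filtered and given states by the stated rule. Counts were summed per library and state, sums under 10 barcodes left out, and fitted with edgeR 4.0.16 (glmQLFit, glmQLFTest, TMM, library and state as terms, all 5 states in 1 fit, common dispersion 0.00547). The 17 genes of the state rule were not tested. Intervals are 95%, exact Poisson or Clopper-Pearson, and cover counting error only. DESeq2 1.42.0, other scalings, filters, thresholds, thinning and each library left out were alternatives. On simulated counts of visceral endoderm-like over naive cells the test found 87% of genes changed 1.5-fold and 100% of those changed 2-fold, with 8 false calls among 13075 genes. Every simulated state had the naive profile, that common dispersion and no library effect, with 100 genes changed at each fold. In the real comparison 74.6% of all genes were called, so these figures do not carry over to it or to the primed sums. Of the last 500 bases of transcripts, 3.10% of 50-base windows of Tet1, 2.44% of Uhrf1 and 0.345% of Dnmt3a had exact copies in other genes. On the other strand, Aire overlaps Dnmt3l and reached 16.8 CPM, and the genes opposite Dnmt3a, Dnmt3b, Tet2 and Tet3 stayed under 1 CPM. Named genes are all 9 members, up to 2 called genes of largest fold per pathway list and comparison, of which a part is given, and the gene most like each member. Members and lists were chosen with earlier results of these data known.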

Additional observations from a re-analysis of the deposited data

Results flagged for a closer look

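A pair of results had libraries that moved in opposite directions with counting intervals on both sides leaving out 0. The difference between libraries was not tested, since each type has 1 library. Dnmt3l in early PrE-like over naive cells had plain log2 ratios of -0.49 in Type I, -0.36 in Type II and 0.18 in Type III. Dnmt3b in visceral endoderm-like over naive cells had -0.17 in Type I, -0.0855 in Type II and 0.33 in Type III. In Type III 31 of 45 early PrE-like and 14 of 19 visceral endoderm-like barcodes also occurred in another library. With shared barcodes left out, Dnmt3l in early PrE-like over naive cells was at -0.74 (edgeR adjusted p = 4.27e-07). Dnmt3b in visceral endoderm-like over naive cells was then at -0.49 (edgeR adjusted p = 0.000154), from Type I and Type II, since only 5 visceral endoderm-like barcodes of Type III remained and gave no sum.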

How the results depend on the processing

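Over the log2 fold changes of the 9 genes, 894 values under alternatives kept their side of the threshold, 42 lost the call and 8 gained one. A change of sign was counted only where the main or the alternative value was called, and 1 value reversed in this way. The reversal was Dnmt3b in early PrE-like over naive cells, -0.13 with shared barcodes left out, a setting added after the data were seen. Uncalled values that changed sign are among the 894. Tet3 in primed over naive cells, for example, was at 0.14 and ranged from -0.17 to 0.71 under alternatives. Genes called in primed over naive cells numbered 1381, 435 after thinning, 716 in the S phase range, and 152 to 1680 with 1 library left out, with 1 to 5 of the 9 genes. In TE-like over naive cells they numbered 8094, 5043 after thinning and 5319 to 7891 with 1 library left out. In visceral endoderm-like over early PrE-like cells they numbered 3135, 1802 after thinning, 1732 in the S phase range and 717 to 3065 with 1 library left out, with 1 to 6 of the 9 genes. Among libraries left out, Type II gave the lowest of these counts and cost the 9 genes 12 calls, against 4 for Type I and 1 for Type III. Thinning and leaving out a library test fewer UMIs by construction, and other causes were not tested. Requiring that exactly 1 state rule be met left too few visceral endoderm-like barcodes for those comparisons. As means over barcodes in place of sums, 35 of the levels moved by less than the spread between libraries and 10 by more. State sums of the same library were compared with the library as a block in the fit. Without that term 2 calls of the 9 genes were lost, Dnmt3b and Dnmt3l in early PrE-like over naive cells. No paired analysis was possible between types because each has 1 library. Primed values rest on 2 libraries, and Type III endoderm on 45 and 19 barcodes.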
